A study of Mus musculus with 12 samples.

Results

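The 9 genes described here, *Tbx21*, *Eomes*, *Ifng*, *Il12rb1*, *Il12rb2*, *Il17a*, *Il17f*, *Il22* and *Il23r*, carry the programmes of group 1 and group 3 innate lymphoid cells (ILC1s and ILC3s), which group 2 cells (ILC2s) can take on. The rule lists them by name, 5 for the arm of ILC1s and natural killer (NK) cells and 4 for the ILC3 arm, and uses no measured value. The genes were nevertheless chosen with earlier results of these data known. They are 9 of the 24346 genes in the expression files. T-bet, encoded by *Tbx21*, and Eomes direct the development of ILC1s and NK cells, and IL-12 acts through the receptor chains encoded by *Il12rb1* and *Il12rb2* to raise interferon-γ, encoded by *Ifng*. ILC3s make IL-17A, IL-17F and IL-22, and sense IL-23 through a receptor that pairs the *Il23r* product with the shared *Il12rb1* chain. Lung ILC2s are known to gain interferon-γ under IL-12 and IL-18 and to gain IL-17 in inflamed airways, a change called plasticity.

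The study sequenced RNA from ILC2s of the lung, sorted as CD45+ cells that lacked lineage markers and carried Thy1.2 and ST2, from adult C57BL/6 mice (C57BL/6J in the published methods). Mice were wild type (WT) or lacked *Sema6d* in the whole body (*Sema6d*-/-, labelled 6DKO), and received PBS or recombinant mouse IL-33 into the nose for 3 days, at 50 ng by the sample labels. The published methods state a higher dose of IL-33, and which dose these mice received is not settled here. Each of the 4 groups had 3 libraries, 12 in all: WT PBS, 6DKO PBS, WT IL-33 and 6DKO IL-33. The labels do not say how many mice stand behind a library. Values are FPKM, fragment numbers scaled by transcript length and by library size, so levels of different genes can be set side by side.

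*Sema6d*, named here as the targeted gene, was measured in all 12 libraries. It stood at 27.5, 46.1 and 37.5 FPKM in WT PBS, at 29.0, 22.9 and 19.8 in 6DKO PBS, at 19.7, 35.5 and 28.7 in WT IL-33 and at 15.4, 13.6 and 13.8 in 6DKO IL-33. Under IL-33 every 6DKO library lay below every WT library (exact permutation test, two-sided, p = 0.1, the smallest that 3 against 3 libraries allows). Under PBS the genotypes overlapped (exact p = 0.2). Values for a whole gene cannot show whether the deleted stretch was read, so this check of the genotype labels is not decisive.

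The ILC2 label was checked against 17 marker genes, of which 16 had a value above 0. *Il1rl1*, the gene of the IL-33 receptor chain ST2, lay between 117 and 269 FPKM, *Gata3* between 295 and 690, and *Areg*, the most abundant marker, between 1063 and 2188. *Ptgdr2* was listed at 0 in every library. Among defining T cell genes *Cd4* was listed at 0 in every library and *Cd3e* reached 9.81 FPKM, while *Cd3g* lay between 190 and 480 FPKM.

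A single library stood apart. In 6DKO PBS replicate 2, genes of cytotoxic lymphocytes were high: *Ncr1*, an NK cell receptor, stood at 58.9 FPKM, *Klrd1* at 24.0, *Gzma* at 653, *Gzmb* at 100.4, *Prf1* at 36.3 and *Nkg7* at 658. The 18 measured genes of the 19 on the NK cell and ILC1 marker list summed to 4939 FPKM there, against a median of 2554 over the 12 libraries. *Cxcr6*, which ILC2s also carry, was the most abundant gene of that list in each library. Without *Cxcr6* the sum was 2791 FPKM in this library and between 304 and 1082 in the other 11. In 6DKO IL-33 replicate 1, *Ncr1* stood at 2.61 FPKM and *Klrd1* at 4.81, and both genes were listed at 0 in the remaining 10 libraries. The NK cell marker NK1.1 was among the lineage markers the sort removed, and its gene *Klrb1c* stood at 3.06 FPKM in 6DKO PBS replicate 2.

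Macrophage genes also varied by library. The 11 listed macrophage markers summed to 183 FPKM in 6DKO PBS replicate 2, to 429 in 6DKO IL-33 replicate 2 and to 149 in 6DKO IL-33 replicate 3, against a median of 9.03. *Chil3* was the most abundant of them by its mean, with 394 FPKM in 6DKO IL-33 replicate 2. *Adgre1*, which encodes F4/80, was listed at 0 in all 3 of these libraries. Antibodies to F4/80 and CD11c were among those the published methods name for the lineage gate. The marker genes named here and above were chosen after their values were seen. The part of NK cell or macrophage RNA in the values below was not tested.

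Zeros were unevenly spread. Of the 3617 genes with a mean of 5 to 20 FPKM, between 4.67% and 17.7% had a value of 0 in each PBS library. In each IL-33 library the share was between 0.691% and 1.38%. A member listed at 0 under PBS was therefore in a library where many mid-level genes were also listed at 0. Relative depth, read from the smallest steps between values of low genes, ran from 0.739 in WT PBS replicate 1 to 1.39 in WT IL-33 replicate 1, with WT IL-33 replicate 3 set to 1. The total reads of a library are not in the values, and reads without molecular identifiers are not independent molecules.

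**Figure D1:**
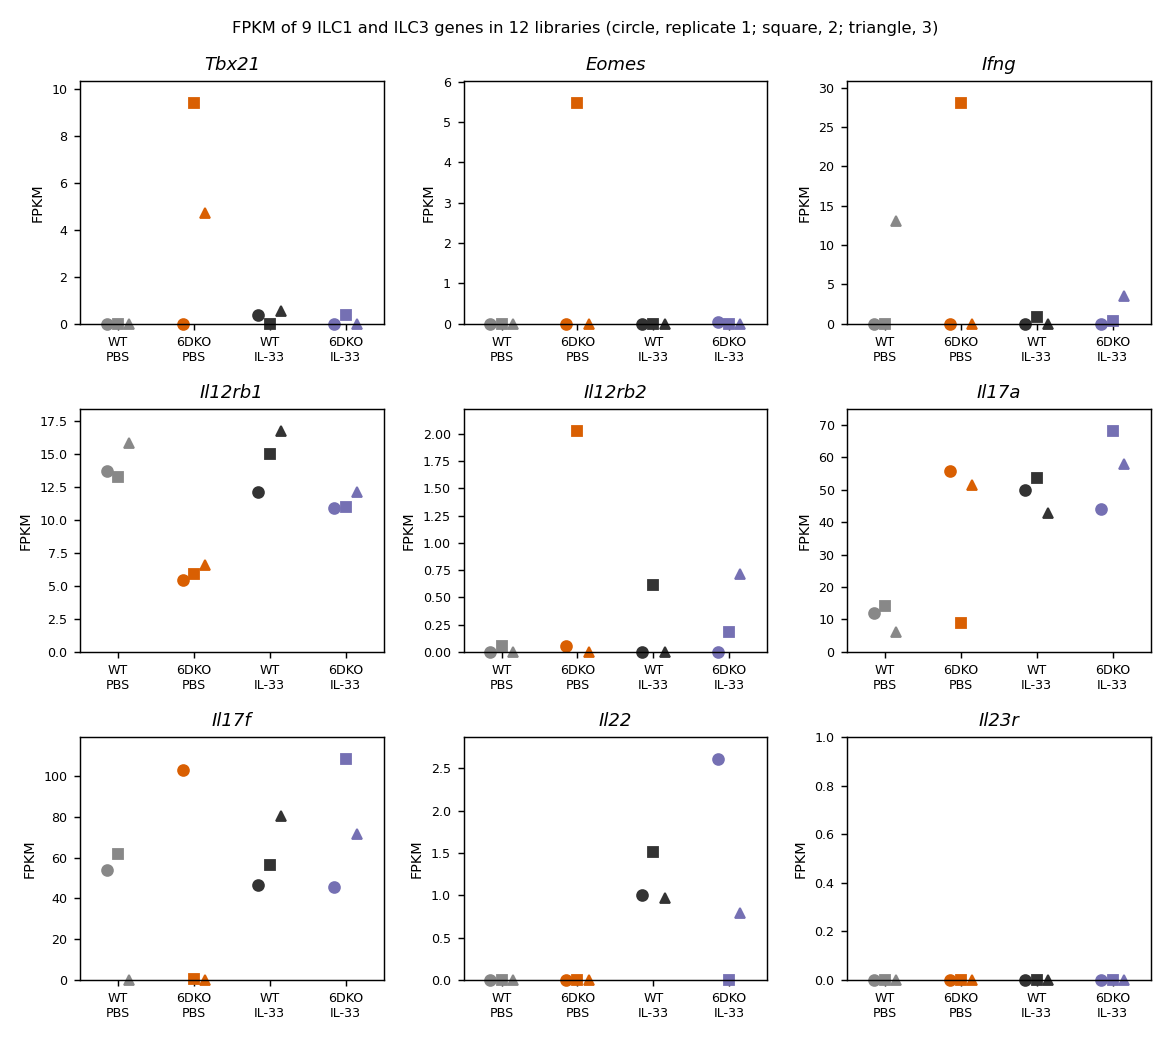
Each panel plots FPKM (vertical axis, linear, its own scale) of 1 gene in the 12 libraries by group, with 1 point for each library and the marker shape giving the replicate number. *Il12rb1* lies lowest in 6DKO PBS, *Il17a* lies between 6.01 and 14.1 FPKM in WT PBS and between 42.9 and 53.7 in WT IL-33, and *Il23r* is listed at 0 throughout.

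*Tbx21*, the master regulator of ILC1s, was listed at 0 in all 3 WT PBS libraries. In 6DKO PBS it stood at 0, 9.40 and 4.70 FPKM. In WT IL-33 it stood at 0.375, 0 and 0.521 FPKM, and in 6DKO IL-33 at 0, 0.377 and 0. Only 2 of the 12 libraries, both of 6DKO PBS, exceeded 1 FPKM, and the other library of that group was listed at 0. On the log2(FPKM + 1) scale, which understates folds of low genes, the difference of 6DKO PBS from WT PBS was 1.96 (SE 0.68, adjusted p = 0.276, limma, 3 libraries a group). The difference of 6DKO IL-33 from 6DKO PBS was −1.81 (SE 0.68, adjusted p = 0.221). Exact permutation p was 0.4 for each.

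These *Tbx21* differences hung on single libraries. Without 6DKO PBS replicate 1, where *Tbx21* was listed at 0, the difference between genotypes under PBS was 2.94 (adjusted p = 0.00736) and that between treatments in 6DKO was −2.79 (adjusted p = 0.00554), both past the threshold of 0.05. Over all alternatives the adjusted p ran from 0.00736 to 0.847 for the first and from 0.00554 to 0.465 for the second. Without replicate 2, the library with NK cell genes, the same differences were 1.26 (adjusted p = 0.357) and −1.10 (adjusted p = 0.355). In replicate 3, where *Tbx21* stood at 4.70 FPKM, *Ncr1*, *Klrd1* and *Gzma* were listed at 0, while *Nkg7* stood at 50.4 FPKM, *Xcl1* at 37.1 and *Ccl5* at 254.

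*Eomes*, the T-box factor of NK cells, was above 0 in 2 libraries. It stood at 5.47 FPKM in 6DKO PBS replicate 2 and at 0.0316 in 6DKO IL-33 replicate 1, the same 2 libraries in which *Ncr1* was above 0. With replicate 2 left out, *Eomes* was listed at 0 in every PBS library.

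*Ifng*, the effector cytokine of ILC1s and NK cells, was above 0 in 5 of 12 libraries, with at least 1 in each group. It stood at 0, 0 and 13.1 FPKM in WT PBS, against 0, 28.0 and 0 in 6DKO PBS. It stood at 0, 0.890 and 0 in WT IL-33 and at 0, 0.379 and 3.47 in 6DKO IL-33. The highest value fell in the library with NK cell genes, and without it *Ifng* was listed at 0 in the remaining 6DKO PBS libraries. The value of 13.1 FPKM in WT PBS replicate 3 came with *Ncr1* and *Klrd1* listed at 0 and *Gzmb* at 8.44 FPKM. All groups overlapped in each of the 4 comparisons between pairs of groups.

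*Il12rb1*, which encodes the chain shared by the IL-12 and IL-23 receptors, varied little between libraries of a group. It stood at 13.7, 13.3 and 15.8 FPKM in WT PBS, against 5.45, 5.87 and 6.62 in 6DKO PBS. Under IL-33 it stood at 12.1, 15.0 and 16.7 FPKM in WT, against 10.9, 10.9 and 12.1 in 6DKO. Each 6DKO PBS library lay below each library of the other 3 groups, and 6DKO IL-33 lay below WT IL-33 by a narrow margin, 12.106 against 12.131 FPKM at the nearest.

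The *Il12rb1* mean in 6DKO PBS was 0.419 of that in WT PBS (log2 difference −1.13, SE 0.33, limma adjusted p = 0.210, lower in 3 of 3 libraries). It was 1.89 times higher in 6DKO IL-33 than in 6DKO PBS (log2 difference 0.82, SE 0.33, limma adjusted p = 0.252). Exact permutation p was 0.1 for each, the smallest possible. Between genotypes under IL-33 the log2 difference was −0.33 (limma adjusted p = 1, exact p = 0.1). In WT the treatments differed by 0.03 on the log2 scale, within the spread of the libraries (exact p = 0.9). None of these passed the threshold across all genes. Leaving out the library with NK cell genes moved the genotype difference under PBS to −1.12 (adjusted p = 0.153, range over alternatives 0.0753 to 0.907), so *Il12rb1* did not follow that library.

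*Il12rb2*, the chain particular to the IL-12 receptor, stayed at or below 0.717 FPKM in 11 libraries and reached 2.02 in 6DKO PBS replicate 2. It was listed at 0 in 6 libraries. The values of 0.050 in WT PBS replicate 2 and 0.053 in 6DKO PBS replicate 1 each stood for 1 read. Without the library with NK cell genes, the highest *Il12rb2* value under PBS was 0.053 FPKM.

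*Il17a*, an effector cytokine of ILC3s, was above 0 in all 12 libraries. It stood at 12.02, 14.1 and 6.01 FPKM in WT PBS, against 50.0, 53.7 and 42.9 in WT IL-33. In 6DKO PBS it stood at 55.8, 8.86 and 51.4 FPKM, and in 6DKO IL-33 at 44.1, 68.1 and 58.0. In WT every IL-33 library lay above every PBS library. In 6DKO the PBS libraries were split, with replicates 1 and 3 inside the range of 6DKO IL-33 and replicate 2, the library with NK cell genes, inside the range of WT PBS.

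In WT the *Il17a* mean was 4.56 times higher under IL-33 than under PBS (log2 difference 2.16, SE 0.58, limma adjusted p = 0.0601, higher in 3 of 3 libraries). Exact permutation p was 0.1. The call changed with the fit: adjusted p was 0.0227 with array weights, 0.0300 with only these 2 groups fitted, 0.0417 without 6DKO PBS replicate 1 and 0.00422 without 6DKO PBS replicate 2. Over all alternatives it ran from 0.00422 to 0.184. Neither 6DKO PBS library enters the WT means, so leaving either out kept the difference at 2.16 and altered only the shared spread and the adjustment. In 6DKO the mean was 1.47 times higher under IL-33 (log2 difference 0.88, limma adjusted p = 0.513), and 0.06 on the log2 scale without replicate 2 (adjusted p = 0.955).

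Between genotypes under PBS the *Il17a* mean was 3.61 times higher in 6DKO (log2 difference 1.47, SE 0.58, limma adjusted p = 0.320, exact p = 0.3). Without 6DKO PBS replicate 2 the log2 difference was 2.29 (adjusted p = 0.0141), past the threshold, and over all alternatives adjusted p ran from 0.0141 to 0.913. Under IL-33 the mean was 1.16 times that of WT (log2 difference 0.20, limma adjusted p = 1), and the genotypes overlapped. In these bulk libraries, fewer cells that make a transcript and less of it per cell cannot be told apart.

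*Il17f*, the neighbour and close relative of *Il17a*, swung between libraries of a group. It stood at 54.0, 61.7 and 0 FPKM in WT PBS, against 103, 0.147 and 0 in 6DKO PBS. It stood at 46.5, 56.6 and 80.4 FPKM in WT IL-33 and at 45.7, 108 and 71.7 in 6DKO IL-33. All 6 IL-33 libraries lay at or above 45.7 FPKM, while 3 of 6 PBS libraries lay at or below 0.147, a value of 1 read.

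The PBS libraries low in *Il17f* were not all low in *Il17a*: 6DKO PBS replicate 3 held *Il17a* at 51.4 FPKM with *Il17f* listed at 0. The *Il17f* log2 difference of IL-33 from PBS was 2.004 in WT (SE 1.76, limma adjusted p = 0.621) and 3.87 in 6DKO (SE 1.76, limma adjusted p = 0.323). Leaving out 1 library moved the WT value between 0.046, without WT PBS replicate 3, and 3.03, without WT PBS replicate 2. It moved the 6DKO value between 2.72, without 6DKO PBS replicate 3, and 6.07, without 6DKO PBS replicate 1 (adjusted p = 0.0512, range over alternatives 0.0512 to 0.597). Between genotypes under IL-33 it was 0.25 (SE 1.76, limma adjusted p = 1), and turned to −0.056 without 6DKO IL-33 replicate 2. Every comparison of *Il17f* overlapped.

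*Il22*, a cytokine of ILC3s that acts on epithelium, was listed at 0 in all 6 PBS libraries. It stood at 0.999, 1.52 and 0.973 FPKM in WT IL-33 and at 2.61, 0 and 0.789 in 6DKO IL-33. No fold is given against PBS, where every library was listed at 0. On the log2(FPKM + 1) scale the WT difference was 1.104 (SE 0.44, limma adjusted p = 0.203, exact p = 0.1, higher in 3 of 3 libraries). It was called with only these 2 groups fitted (adjusted p = 0.0188, range over alternatives 0.0188 to 0.664), and the difference ran from 0.35 after quantile normalization to 3.63 with a pseudocount of 0.1. Genotypes under IL-33 differed by −0.21 (limma adjusted p = 1), and by 0.24 without 6DKO IL-33 replicate 2, where *Il22* was listed at 0.

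By the steps between its values, the *Il22* levels stood for 6 to 21 reads, a rule chosen after seeing the data. *Iltifb*, a near-identical paralogue of *Il22*, was listed at 0 in all 12 libraries, and how reads were shared between them is not known. *Il23r*, the chain particular to the IL-23 receptor, was listed at 0 in all 12 libraries and could not be tested.

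Ordered by group mean, *Il17f* (61.2 FPKM), *Il17a* (48.8) and *Il12rb1* (14.6) led in WT IL-33, and the same order held in 6DKO IL-33 with 75.3, 56.7 and 11.3. The ranges of *Il17f* and *Il17a* overlapped in each group, while *Il12rb1* lay below both in each IL-33 library. *Il17a* in WT IL-33 exceeded 91.7% of all 24346 genes, of which 13817 were above 0 there. Every other member had a mean at or below 1.28 FPKM under IL-33.

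In WT, 0 of the 8 members tested were called by limma for IL-33 against PBS (adjusted p under 0.05), beside 4.31% of the 11428 genes tested. At an unadjusted p under 0.05 there were 2, *Il17a* and *Il22*, beside 2019 of all genes. The same 2 members had groups that did not overlap, both higher under IL-33, beside 25.1% of all genes. The median log2 difference was 0.28 over the 8 members and 0.16 over all genes. Of the 8 members, 6 passed the filter of a mean of at least 0.5 FPKM, and *Eomes* and *Il12rb2* were kept because they were listed. The p-values measure spread between libraries.

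In 6DKO, 0 of 8 members were called by limma for IL-33 against PBS, beside 2.87% of all genes. At an unadjusted p under 0.05 there were 3, *Tbx21* (lower), *Il12rb1* and *Il17f* (both higher), beside 1741 of all genes. *Il12rb1* alone did not overlap, 1 member beside 22.6% of all genes. The median log2 difference was 0.30 over members and 0.14 over all genes.

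Between genotypes under IL-33, 0 of 8 members were called by limma, beside 0.00875% of all genes, which is 1 gene. No member reached an unadjusted p under 0.05 (0 of 8, beside 211 of all genes). *Il12rb1*, lower in 6DKO, was the 1 member without overlap, beside 14.2% of all genes. The median log2 difference was 0.06 over members and 0.01 over all genes.

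Between genotypes under PBS, 0 of 8 members were called by limma, beside 0.578% of all genes. At an unadjusted p under 0.05 there were 3, *Il12rb1* (lower in 6DKO), *Il17a* and *Tbx21* (both higher), beside 1481 of all genes. *Il12rb1* was the 1 member without overlap, beside 8.6% of all genes. The median log2 difference was 0.44 over members and 0.0035 over all genes. *Tbx21* was called without 6DKO PBS replicate 1 and *Il17a* without replicate 2, so the library left out decided which member passed.

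Whether the response to IL-33 differed between genotypes was tested as the interaction. There 0 of 8 members were called by limma, beside 0.0175% of all genes, which is 2 genes. At an unadjusted p under 0.05 there was 1, *Tbx21* (log2 difference −2.16, SE 0.96, limma adjusted p = 0.884), beside 637 of all genes. The interaction was −1.27 for *Il17a* (SE 0.81), 0.80 for *Il12rb1* (SE 0.46), 1.86 for *Il17f* (SE 2.48) and −0.21 for *Il22* (SE 0.62), with limma adjusted p between 0.896 and 0.972. Leaving out 1 library moved it between −3.15 and −1.46 for *Tbx21*, without 6DKO PBS replicates 1 and 2 in turn (adjusted p = 0.0511 for the first, range over alternatives 0.0511 to 0.993). For *Il17a* it moved between −2.10, without 6DKO PBS replicate 2, and −0.83, without replicate 1. For *Il17f* it moved between 0.716, without 6DKO PBS replicate 3, and 4.06, without replicate 1. For *Il22* it turned to 0.24 without 6DKO IL-33 replicate 2. The median interaction was −0.31 over members and −0.02 over all genes. The larger *Il17a* difference in WT than in 6DKO was thus not shown to differ between genotypes. The 5 comparisons share groups and are not independent of each other.

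**Figure D2:**
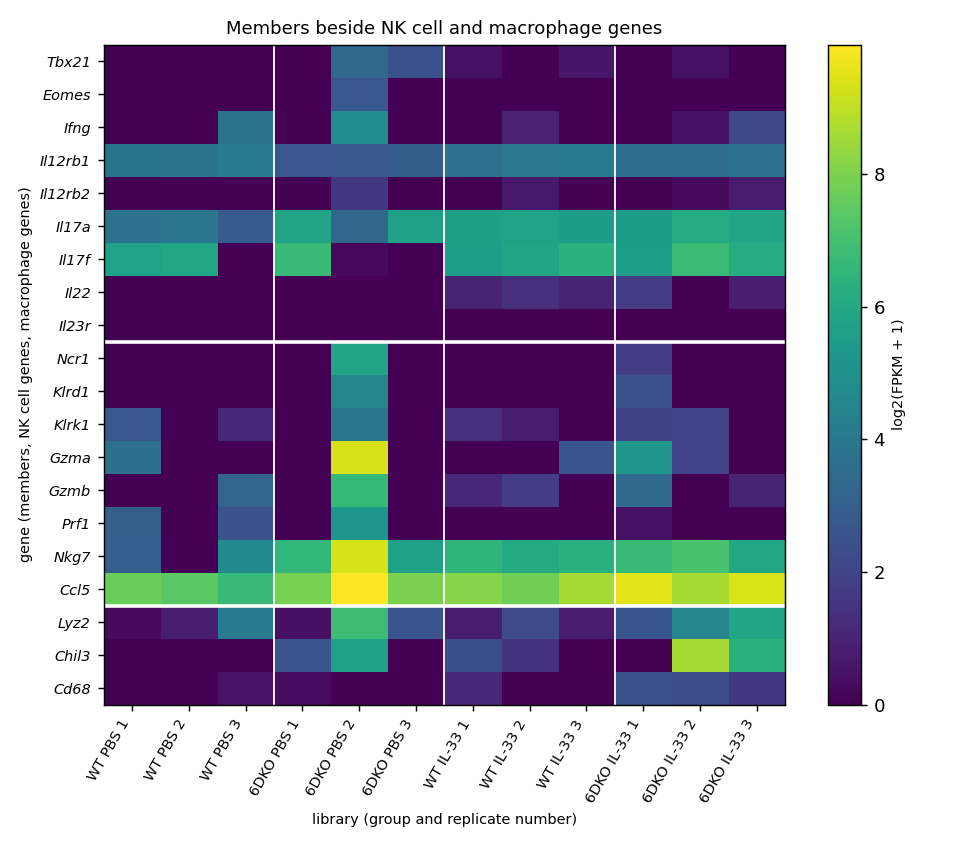
Colour gives log2(FPKM + 1) of the 9 members, 8 NK cell genes and 3 macrophage genes (vertical axis) in the 12 libraries (horizontal axis, group and replicate number). In 6DKO PBS replicate 2 *Ncr1* (58.9 FPKM), *Gzma* (653) and *Nkg7* (658) stand above every other library, in the library with the highest *Tbx21*, *Eomes*, *Ifng* and *Il12rb2*.

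Genes around the ILC1 arm were described from a list of 19 genes of the IL-12, IL-18 and interferon-γ pathway, 18 of them tested. In WT 1 was called by limma for IL-33 against PBS, *Il18rap*, a chain of the IL-18 receptor. It stood at 12.2, 4.32 and 18.99 FPKM under PBS and at 42.0, 44.7 and 51.8 under IL-33 (log2 difference 2.07, limma adjusted p = 0.0209). That call was lost without any 1 of the WT IL-33 libraries and with only these groups fitted, with adjusted p from 0.00893 to 0.0947 over alternatives. The WT count of 1 also rose, to at most 3 with 1 library left out and to 4 with array weights. In 6DKO 0 of 18 were called by limma, with 3 at an unadjusted p under 0.05. *Ifngr1*, a chain of the interferon-γ receptor, was the most abundant gene of the list with a mean of 437 FPKM. The median log2 difference of the list was 0.13 in WT and −0.02 in 6DKO, beside 0.16 and 0.14 over all genes. *Stat4*, which carries the IL-12 signal, stood at 51.1, 38.8 and 40.5 FPKM in WT PBS, against 116, 79.8 and 73.9 in 6DKO PBS (log2 difference 1.01, limma adjusted p = 0.135). *Ifngr1* and *Stat4*, and below *Ccr6*, *Gata3*, *Id2* and *Rora*, were not called and were chosen after their values were seen.

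Of 25 genes around the ILC3 arm, 24 were tested, and 1 rose and 2 fell in each genotype under IL-33. Beside them 4.31% of all genes were called in WT and 2.87% in 6DKO. *Batf*, an AP-1 factor needed for IL-17 in T cells, rose in WT from 1.19, 35.8 and 33.1 FPKM to 165, 259 and 213 (log2 difference 3.91, limma adjusted p = 0.0220, and 2.57 without WT PBS replicate 1). In 6DKO *Batf* stood at 73.0, 71.3 and 37.6 FPKM under PBS and at 264, 233 and 161 under IL-33, without overlap and without a call (log2 difference 1.87, limma adjusted p = 0.316). The WT call of *Batf* was lost without any 1 of the WT IL-33 libraries and with only these groups fitted (adjusted p from 0.00399 to 0.144 over alternatives). *Irf4*, a partner of BATF, rose in 6DKO from 1.20, 2.07 and 9.79 FPKM to 45.5, 46.2 and 42.4 (log2 difference 3.45, limma adjusted p = 0.00563). In WT *Irf4* stood at 9.46, 10.9 and 11.9 FPKM under PBS and at 27.0, 46.7 and 59.0 under IL-33, also without overlap and without a call (log2 difference 1.88, limma adjusted p = 0.0737). The interaction was not called for *Batf* or *Irf4* (limma adjusted p of 0.896 and 0.891). The 6DKO call of *Irf4* was lost with only these groups fitted (adjusted p from 0.000686 to 0.0547 over alternatives). The median of the list was 0 in WT and −0.10 in 6DKO.

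*Tmem176a* and *Tmem176b*, a pair of membrane protein genes abundant in ILC3s, fell in both genotypes. *Tmem176b* stood between 930 and 1484 FPKM under PBS, and between 268 and 364 under IL-33. Its log2 difference was −1.60 in WT (limma adjusted p = 8.33e-05) and −2.15 in 6DKO (limma adjusted p = 7.48e-06). That of *Tmem176a* was −1.88 in WT (limma adjusted p = 5.06e-05) and −2.01 in 6DKO (limma adjusted p = 2.03e-05). These 4 calls held in all 21 alternatives. *Ccr6*, a defining ILC3 gene, was above 0 in 1 library, at 1.25 FPKM.

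Of 15 factors that hold the ILC2 state or oppose the other states, *Tcf7* rose in both genotypes under IL-33. *Tcf7*, which encodes TCF-1, stood at 18.3, 10.2 and 21.3 FPKM in WT PBS, against 48.7, 57.6 and 56.8 in WT IL-33 (log2 difference 1.71, limma adjusted p = 0.0117). In 6DKO its log2 difference was 1.77 (limma adjusted p = 0.0139), and *Nfil3* also rose there (log2 difference 1.101, limma adjusted p = 0.0317). That *Nfil3* call was lost in 10 of 21 alternatives, among them fits without each 6DKO IL-33 library, without 6DKO PBS replicate 2 or 3 and without WT IL-33 replicate 2 (adjusted p from 0.0106 to 0.143). In WT *Nfil3* stood at 134.5, 112.4 and 121.5 FPKM under PBS and at 149.7, 184.8 and 230.2 under IL-33, without overlap and without a call. *Tcf7* lost its call in 2 alternatives in WT and in 3 in 6DKO, each of them a fit without 1 IL-33 library of that genotype (adjusted p up to 0.0562 and 0.0670). The median of this list was 0.02 in WT and −0.06 in 6DKO. *Gata3*, *Id2* and *Rora* were not called. Of the 15 receptors and products of the IL-17 and IL-22 families, 9 were tested. *Il17rb*, the IL-25 receptor chain, rose in WT (log2 difference 0.89, limma adjusted p = 0.0250) and in 6DKO (1.32, limma adjusted p = 0.00454). The WT call was lost in 5 of 21 alternatives, among them fits without WT PBS replicate 3 or WT IL-33 replicate 2 or 3 (adjusted p from 0.0177 to 0.115), and the 6DKO call in 0. The median of these receptors and products was 0.0066 in WT and 0 in 6DKO. No gene of these 4 lists was called by limma between genotypes or in the interaction. Between genotypes under IL-33 and in the interaction this held in every alternative, but under PBS the first 3 lists each gained 1 call in 1 of 21 alternatives, a fit without 1 library. Leaving out 1 library moved the counts for IL-33 against PBS, in the same order, to between 0 and 3, 2 and 5, 0 and 2, and 0 and 1 in WT, and to between 0 and 1, 3 and 4, 0 and 3, and 1 and 2 in 6DKO. At an unadjusted p under 0.05 the counts between genotypes under PBS were 2 of 18, 6 of 24, 2 of 15 and 1 of 9. Beside them stood 1481 of all 11428 genes.

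Genes whose profile was most like a member over the 12 libraries were found by the root mean square difference of gene-centred log2(FPKM + 1), among 11394 genes. Nearest to *Il12rb1* were *Ero1l* (0.24), *Fam129a* (0.25) and *Dnm2* (0.25). *Ero1l* stood at 167, 183 and 154 FPKM in 6DKO PBS and between 218 and 407 in the other groups, so it shared the low 6DKO PBS values. Nearest to *Il17a* were *Poc5* (0.49), *Tnfsf9* (0.50) and *Terf2ip* (0.53). *Tnfsf9*, which encodes the ligand of 4-1BB, stood at 27.8 FPKM in 6DKO PBS replicate 2 and at 69.9 and 114 in the other libraries of that group.

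Nearest to *Il22* were *Dapk2* (0.25), *Cenpj* (0.26) and *Hmmr* (0.28), and nearest to *Tbx21* were *Olfr1043* (0.23), *Ptx3* (0.27) and *Olfr1044* (0.28). For *Ifng* they were *Pltp* (0.44), *Tspan7* (0.66) and *Plek* (0.69). For *Il17f* no gene came nearer than *Dbf4* (1.51), followed by *Marveld2* and *Cstf2t* (both 1.58), against a spread of 2.63 of *Il17f* around its own mean. With 12 libraries and many zeros, likeness of this kind is a description.

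The members lie on 6 chromosomes of GRCm38, by GENCODE. *Il17a* (chr1:20730905-20734496, plus strand) and *Il17f* (chr1:20777146-20790617, minus strand) are 42.6 kb apart with 0 genes between them. *Il12rb2* (chr6:67291318-67376188) and *Il23r* (chr6:67422932-67491855), both on the minus strand, are 46.7 kb apart with 0 coding genes between. *Ifng* (chr10:118441046-118445892) and *Il22* (chr10:118204942-118210047), both on the plus strand, are 231 kb apart with 9 coding genes between, *Iltifb* among them. *Tbx21* (chr11:97098071-97115331, minus strand), *Eomes* (chr9:118478212-118486132, plus strand) and *Il12rb1* (chr8:70808449-70821424, plus strand) each have no other member on their chromosome. By gene span, *Il12rb2* overlaps the coding gene *Serbp1* and *Eomes* the antisense transcript *Gm33460*, both on the other strand, and *Ifng* overlaps *Gm49751* on the same strand. Reads in shared stretches could be counted for either gene, for the first 2 only if read without strand. The other 6 members overlap no annotated gene.

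Promoters, from 250 bases before to 50 bases after the start, were matched in RefSeq (GRCm38.p6) for 8 of the 9 members, all but *Il12rb1*. Both strands were searched for 4 motifs, of which 3 are named here. They are the STAT motif TTCNNNGAA, which reads the same on both strands, the T-box motif GGTGTGA and the GATA motif AGATAA. Of all 32851 promoters, 8.30%, 3.98% and 11.2% held these in turn. The STAT motif was found in *Ifng* and *Il12rb2*, and the GATA motif in *Il22*. The T-box motif was in 0 of 8. The fourth motif, held by 16.3% of all promoters, was found in *Ifng*, *Il17a*, *Il17f* and *Il23r*. A match is a description of letters and does not show that a factor binds.

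The promoter of *Il22* (chr10:118204714-118205013, plus strand) is printed because *Il22* was listed at 0 in every PBS library and above 0 in every WT IL-33 library. Its GATA motif starts at −229. Capitals mark that motif, and the sequence is written 5′ to 3′ along the gene's strand.
Il22: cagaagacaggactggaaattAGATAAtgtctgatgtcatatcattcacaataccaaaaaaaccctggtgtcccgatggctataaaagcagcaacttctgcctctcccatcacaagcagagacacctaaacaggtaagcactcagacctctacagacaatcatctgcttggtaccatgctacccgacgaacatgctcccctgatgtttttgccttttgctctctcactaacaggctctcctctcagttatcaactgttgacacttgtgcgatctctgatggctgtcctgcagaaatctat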

How the data were processed

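RNA sequencing values came from 12 libraries, 3 for each group. The authors deposited FPKM for each gene and library, aligned to mm10. The sample labels name TopHat2 2.1.1 and Cuffdiff 2.2.1, and the published methods name TopHat 2.0.13 and Cuffnorm 2.2.1. The labels and methods also name different library kits. Values were taken as log2(FPKM + 1) and fitted with limma 3.58.1 in R 4.3.3 (4 group means, eBayes with trend), with Benjamini-Hochberg adjustment over 11428 genes, of which 33 were kept as listed below the filter. Exact permutation tests compared group pairs. Python 3.11.15, numpy 2.4.6, pandas 2.3.3 and matplotlib 3.10.9 were used. The fit was tested on simulated data. The plan was to name the 9 members, list genes called in a contrast and otherwise up to 4 abundant list genes. It also covered the 3 genes most like each member with a mean of at least 0.5 FPKM. Other list and marker genes, among them *Ccr6*, *Stat4* and *Sftpc*, were named after their values were seen. Members and lists were chosen with earlier results of these data known. Alternatives covered pseudocount, filter, scaling, trend, array weights, replicate block, groups fitted and each library left out.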

Additional observations from a re-analysis of the deposited data

Results flagged for a closer look

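*Ptprc*, the gene of the CD45 antigen used in the sort and an ILC2 marker, did not overlap between treatments in either genotype. The direction was opposite in the genotypes. In WT it stood at 234, 240 and 239 FPKM under PBS and at 244, 267 and 248 under IL-33, so every IL-33 library lay above every PBS library. In 6DKO it stood at 335, 269 and 289 FPKM under PBS and at 266, 262 and 257 under IL-33, so every IL-33 library lay below. The margins were narrow, 240.4 against 243.6 FPKM at the nearest in WT and 269.4 against 266.2 in 6DKO. Of all genes, 25.1% in WT and 22.6% in 6DKO had treatments that did not overlap. The interaction was −0.27 on the log2 scale (SE 0.18, limma adjusted p = 0.896), which does not pass the threshold. No member showed such a split, and groups of 3 libraries were not tested for single distant values.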

How the results depend on the processing

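Of 409 values of the 20 member log2 differences under alternatives, 395 kept their direction and side of the threshold, 8 gained a call and 6 turned in sign. No member was called to begin with, so no call could be lost. Members called rose from 0 in WT to 1 with array weights and to 2 with only the groups compared. Leaving out each of 12 libraries gave 0 to 1 in WT, 0 to 1 in 6DKO and 0 to 1 between genotypes under PBS. In the remaining 2 contrasts it was 0 under every alternative. Leaving out libraries moved *Il12rb1* in WT from −0.071 to 0.146, *Il17f* between genotypes under IL-33 from −0.056 to 0.557, and *Il22* from −0.68 to 0.24 both there and in the interaction. A pseudocount of 0.1 moved *Tbx21* to −3.30 in 6DKO, 4.05 between genotypes under PBS and −4.93 in the interaction, and *Il17f* to 3.10 in WT and 5.70 in 6DKO. Quantile normalization turned the *Il22* interaction to 0.0064. The cause of these changes was not tested.

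Libraries with the same replicate number shared no clear deviation from their group means (correlation of deviations −0.0467 to 0.0252 across genes). Such correlations cannot show how mice were assigned to replicate numbers. With replicate number as a block, 0 members were called and 365, 221, 1, 15 and 1 of all genes. Leaving out libraries gave 209 to 692 calls over all genes in WT, 132 to 493 in 6DKO, 0 to 3 and 20 to 212 between genotypes under IL-33 and PBS, and 0 to 27 in the interaction. Array weights gave 212 in 6DKO, 57 between genotypes under IL-33 and 1 under PBS. Quantile normalization moved the all-gene median from 0.16 to −0.04 in WT and from 0.14 to −0.02 in 6DKO. Relative to that median, *Il17a* in WT was 1.996 as deposited and 2.202 after it. The 26 list gene calls gave 545 values, of which 437 kept the call, 108 lost it and 0 turned in sign. A mean of at least 2 FPKM removes *Tbx21*, *Eomes*, *Il12rb2* and *Il22*, which then have no value. By mean log2 level the NK cell list was also highest in 6DKO PBS replicate 2 (5.11 against a median of 2.32). With the smallest value taken as 1 read, or 1 or 2, values of 2 members were whole (tolerance 0.05), and with up to 120 reads, chosen after seeing the data, those of 7.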

Other observations

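Of 16 ILC2 markers tested, *Il17rb* rose and *Il2ra* and *Nmur1* fell under IL-33 in both genotypes, *Klrg1* rose in WT and *Il5* fell in 6DKO by limma. *Il2ra* had log2 differences of −2.16 in WT and −1.57 in 6DKO. Neither *Klrg1* nor *Il5* was called in the interaction, and their calls were lost in 9 and 13 of 21 alternatives. *Klrg1* was also higher without overlap in 6DKO, while *Il5* overlapped in WT. Of 18 NK cell and ILC1 markers 0 were called in any contrast by limma. At an unadjusted p under 0.05 there were 1 or 2 in each contrast, beside 211 to 2019 of all 11428 genes.

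Single markers of other cells were called: *Cd28* and *Trat1* (T cells, higher in 6DKO), *Cd68* (macrophages, higher in 6DKO), *Cd79b* (B cells, higher in WT), *Cpa3* (mast cells and basophils, lower in WT) and *Epcam* (epithelium, lower in 6DKO), each for IL-33 against PBS. Of their alternatives, the calls were lost in 13 for *Cd28*, 8 for *Trat1*, 5 for *Cd68*, 7 for *Cd79b*, 11 for *Cpa3* and 6 for *Epcam*. In the other genotype *Epcam*, *Cpa3* and *Trat1* moved the same way without overlap and without a call. *Epcam* in WT stood at 38.1, 33.8 and 16.4 FPKM under PBS and at 3.74, 4.62 and 8.71 under IL-33. *Cd28* and *Cd68* in WT and *Cd79b* in 6DKO overlapped. None of these genes was called by limma in the interaction. *Sftpc*, a gene of alveolar epithelium, stood at 97.2 FPKM in 6DKO IL-33 replicate 3 and at or below 8.56 elsewhere. Of mesenchyme and endothelium markers 0 were called by limma, with 0 at an unadjusted p under 0.05 in each contrast.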
